A study of Mus musculus with 11 samples.

Results

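Genes known from radial glia and astrocytes, 10 in number, were followed across neurons sorted from the thalamus of newborn mice: Slc1a3, Slc1a2, Fabp7, Aldoc, Aqp4, Aldh1l1, Gja1, Gfap, Vim and Nes. They are 10 of the 54752 genes counted, and each was found by its symbol in the annotation of the deposited gene identifiers. The members were chosen by what these genes are known for, but also selected on CPM values, since the level of 7 of them in their highest library was known when the list was drawn up. Their levels are therefore given as a description with no test. Neurons came from 3 sensory nuclei, with 4 libraries of the dorsolateral geniculate nucleus (dLG, vision), 4 of the ventral posteromedial nucleus (VPM, touch) and 3 of the ventral medial geniculate nucleus (MGv, hearing). All mice were at postnatal day 0, of the outbred strain ICR/CD-1 and of the genotype Gbx2CreER-IRES-EGFP/+::R26lsl-tdTomato/+, and each library held 4 pooled brains. In this line a Cre recombinase that tamoxifen activates is made from the Gbx2 locus and switches on the red protein tdTomato, by which cells were sorted. The label therefore marks cells in which Gbx2 was active when tamoxifen was given, and nothing in the sort selects against a glial cell that carries it.

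Radial glia are the stem cells of the developing brain. They give rise to neurons and later to astrocytes, the support cells that clear glutamate and buffer ions and water around synapses. Both share many transcripts, kept on in part by Notch signalling through RBPJ and the HES repressors, while SOX and NFI factors act in the turn from making neurons to making astrocytes. Newborn neurons shut most of these genes down, although some of them, such as Slc1a2 and Vim, are also found as transcripts in young neurons. The members fall into 4 roles: glutamate uptake (Slc1a3, also called GLAST, and Slc1a2, also called GLT-1), metabolism (Fabp7, which carries fatty acids, Aldoc, a glycolytic aldolase, and Aldh1l1, a folate enzyme), the intermediate filaments (Vim, Nes and Gfap), and membrane channels (Gja1, the gap junction protein connexin 43, and Aqp4, a water channel).

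The start regions of the most abundant member, Fabp7, and of Slc1a3 and Aldoc, which differed strongly between nuclei, are shown because they are where factors of glial identity could act. Each runs from 250 bases before the RefSeq start to 50 bases after it on the gene's own strand (build GRCm38.p6, 5' to 3'). Capitals mark matches on either strand to RBPJ (TGGGAA), the HES N-box (CACNAG), SOX (AACAAT) or the NFI family (TTGGCA). Fabp7 lies at chr10:57784673-57784972 on the plus strand, Aldoc at chr11:78322823-78323122 on the plus strand and Slc1a3 at chr15:8710758-8711057 on the minus strand.
Fabp7: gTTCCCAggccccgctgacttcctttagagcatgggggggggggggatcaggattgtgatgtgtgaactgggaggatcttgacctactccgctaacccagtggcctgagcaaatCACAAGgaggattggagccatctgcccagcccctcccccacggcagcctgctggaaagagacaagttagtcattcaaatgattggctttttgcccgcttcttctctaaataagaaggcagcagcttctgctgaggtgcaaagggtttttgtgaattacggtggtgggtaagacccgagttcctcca
Aldoc: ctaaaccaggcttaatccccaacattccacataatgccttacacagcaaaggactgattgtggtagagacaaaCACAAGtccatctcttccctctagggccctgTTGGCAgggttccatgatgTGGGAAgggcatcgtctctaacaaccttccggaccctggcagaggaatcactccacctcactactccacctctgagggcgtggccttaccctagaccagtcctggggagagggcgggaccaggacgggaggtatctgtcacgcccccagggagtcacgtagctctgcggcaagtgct
Slc1a3: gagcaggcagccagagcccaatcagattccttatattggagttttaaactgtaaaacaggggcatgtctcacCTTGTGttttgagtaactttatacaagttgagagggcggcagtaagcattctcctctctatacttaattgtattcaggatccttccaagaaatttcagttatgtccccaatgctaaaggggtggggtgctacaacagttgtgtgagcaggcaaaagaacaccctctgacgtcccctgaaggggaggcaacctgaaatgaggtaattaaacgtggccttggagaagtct
The Fabp7 window held 1 RBPJ and 1 N-box match. The Aldoc window held 1 RBPJ, 1 N-box and 1 NFI match, and the Slc1a3 window 1 N-box match only. None of these was overlapped by another match. Such short words are common: of 32851 RefSeq windows of the same length, 25.6% held the RBPJ word, 42.5% the N-box, 10.7% the SOX word and 14.1% the NFI word. GC content was 54% for Fabp7, 56.3% for Aldoc and 45.3% for Slc1a3, beside a median of 52.7% over all windows. Of the 10 members, 9 had an entry, all but Aqp4.

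Levels between genes are compared here as counts per 1 M counts (CPM, after TMM scaling, a correction for library composition) per kilobase of exon, averaged over the 11 libraries. Fabp7 stood highest at 45.5, followed by Vim at 9.94, Aldoc at 6.02, Slc1a3 at 2.89 and Slc1a2 at 2.35. Nes and Aldh1l1 were lower at 0.832 and 0.529, and Aqp4, Gja1 and Gfap were lowest at 0.0833, 0.0699 and 0.00451. The ranges over libraries of neighbours in this order overlapped, for example 9.56 to 97.2 for Fabp7 and 5.28 to 14.1 for Vim. Aqp4 and Gfap, which mark mature astrocytes, were thus among the 3 lowest. The neuronal genes Tubb3 and Rbfox3 stood at 1480 and 30.5 on the same scale.

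Relatives of the members from the same gene families were more abundant per length. Among glutamate transporters, the neuronal transporter Slc1a1 stood at 13.0 CPM per kilobase and the neutral amino acid transporter Slc1a4 at 12.2, both above Slc1a2 and Slc1a3. Slc1a1 exceeded Slc1a2 in all 11 libraries, by a ratio of 5.46 to 9.14 in dLG, 6.91 to 14.4 in VPM and 1.73 to 3.51 in MGv. Slc1a3 over Slc1a2 was above 1 in 3 of 3 MGv libraries (1.39 to 3.45), in 1 of 4 dLG libraries (0.0667 to 1.38) and in 0 of 4 VPM libraries (0.279 to 0.563). In MGv, Slc1a3 was thus near Slc1a1, with a ratio of Slc1a1 over Slc1a3 from 0.795 to 1.25, whereas in VPM the ratio was 13.7 to 31.5. The fatty acid carrier Fabp3 stood at 252 CPM per kilobase and exceeded Fabp7 in every library, and Fabp5 stood at 59.9. The common aldolase Aldoa stood at 255, and its ratio over Aldoc ran from 60.1 to 283 in dLG, from 26.8 to 40.5 in VPM and from 34.2 to 37.4 in MGv. Neurofilament light chain, Nefl, stood at 454, and the neuronal connexin Gjd2 at 17.6 beside 0.0699 for Gja1. An opposite-strand gene covers 31.9% of the exon bases of Slc1a1 and 32.8% of those of Nefl, and whether counting used strand was not stated, so these levels are uncertain.

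**Figure D1:**
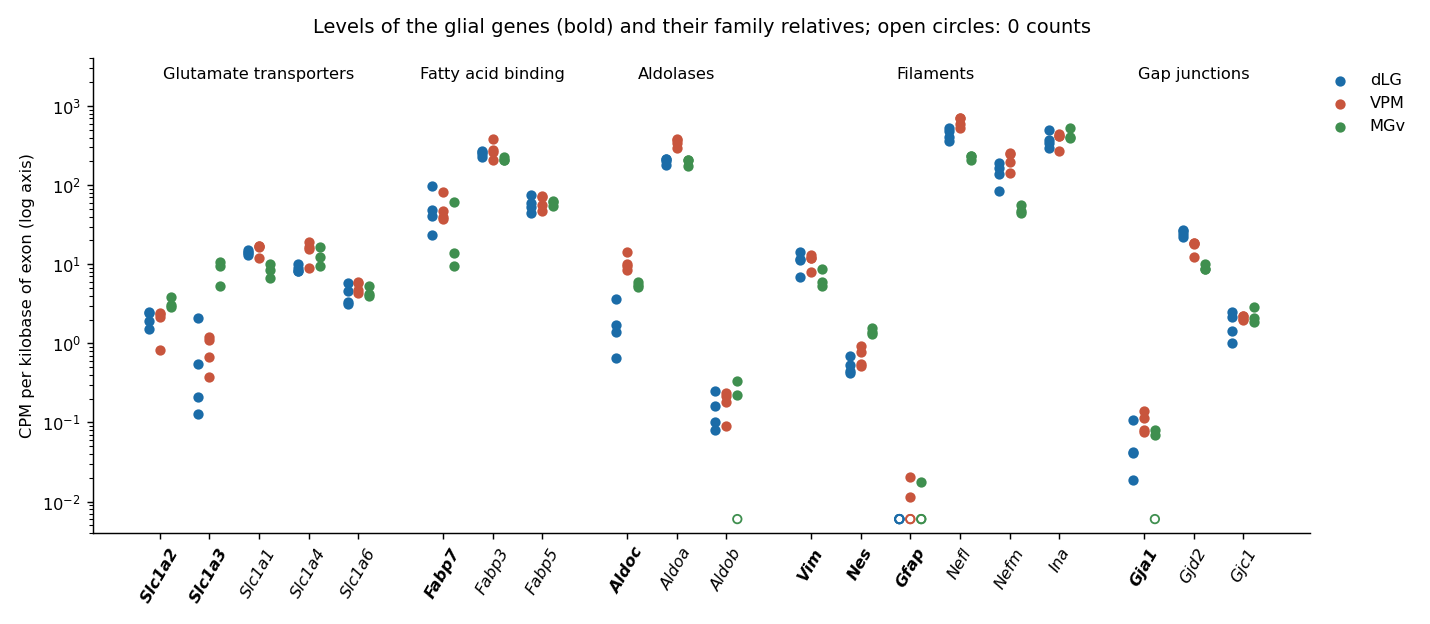
Each point is a library, coloured by nucleus (dLG blue, VPM red, MGv green), and the vertical log axis gives CPM per kilobase of exon for the members (bold) and relatives of the same family, with open circles for libraries with 0 counts. Fabp3, Aldoa, Nefl and Gjd2 lie above Fabp7, Aldoc, Vim and Gja1 in every library, and Slc1a3 rises above Slc1a2 in the 3 MGv libraries.

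All libraries were rich in neuronal transcripts, with 9 pan-neuronal genes summing to between 12700 and 17300 CPM. The 10 members summed to 164 ± 54.3 CPM in dLG (SD, n = 4, range 118 to 242), 194 ± 32.3 in VPM (n = 4, 165 to 240) and 213 ± 61.2 in MGv (n = 3, 164 to 282), and these ranges overlapped. Total counts ran from 15.9 to 23.6 M in dLG and VPM and from 10.2 to 13.2 M in MGv. A count of 3 corresponded to between 0.129 and 0.292 CPM, so low members were read with least precision in MGv. In 3 libraries, dLG 2, VPM 3 and MGv 1, the heat shock gene Hspa8 stood at 3.05 to 5.56 CPM against 159 to 581 in the other 8, so results are also given without them where a value moves. Genes of microglia summed to 5.23 to 23.9 CPM. Those of vascular and meningeal cells summed to 7.32 to 10.7 in VPM, 4.25 to 6.63 in dLG and 3.11 to 5.11 in MGv. Of the 4 vascular genes tested, Kdr and Flt1 were higher in VPM than in dLG (edgeR adjusted p = 0.005 and 0.0747), beside 5.74% of all genes tested. Both held 7 or fewer counts in every dLG library. Red blood cell genes stood at 512 CPM in dLG 3 and at 11.7 or less elsewhere. In bulk libraries such as these, fewer cells of a type and less RNA per cell cannot be told apart.

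Differences between nuclei were tested with edgeR's quasi-likelihood test on all 15907 genes that passed the count filter, adjusted over those genes by Benjamini-Hochberg, with a call at an adjusted p under 0.1. Of the 10 members 9 passed the filter, all but Gfap. Between dLG and VPM, 0 members were higher in dLG (4.97% of all genes tested were) and 1, Aldoc, was higher in VPM (5.74%). Between dLG and MGv, 1 member, Vim, was higher in dLG (8.61%) and 3, Slc1a3, Aldoc and Nes, were higher in MGv (7.49%). Between VPM and MGv, 1 member, Vim, was higher in VPM (10.4%) and 3, Slc1a3, Nes and Aqp4, were higher in MGv (8.56%). The median log2 fold change of the 9 members was -0.16 for dLG over VPM, -0.64 for dLG over MGv and 0.22 for VPM over MGv, beside 0, 0.02 and 0.02 over all genes tested. The members did not move as a block: Slc1a3, Nes, Aldoc and Vim each had a different order of nuclei or size of difference. Of the genes called between dLG and VPM, 46.4% were higher in dLG, or 61.1% when libraries were scaled by total counts instead of TMM. The contrasts share libraries, so their counts are not independent of each other.

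**Figure D2:**
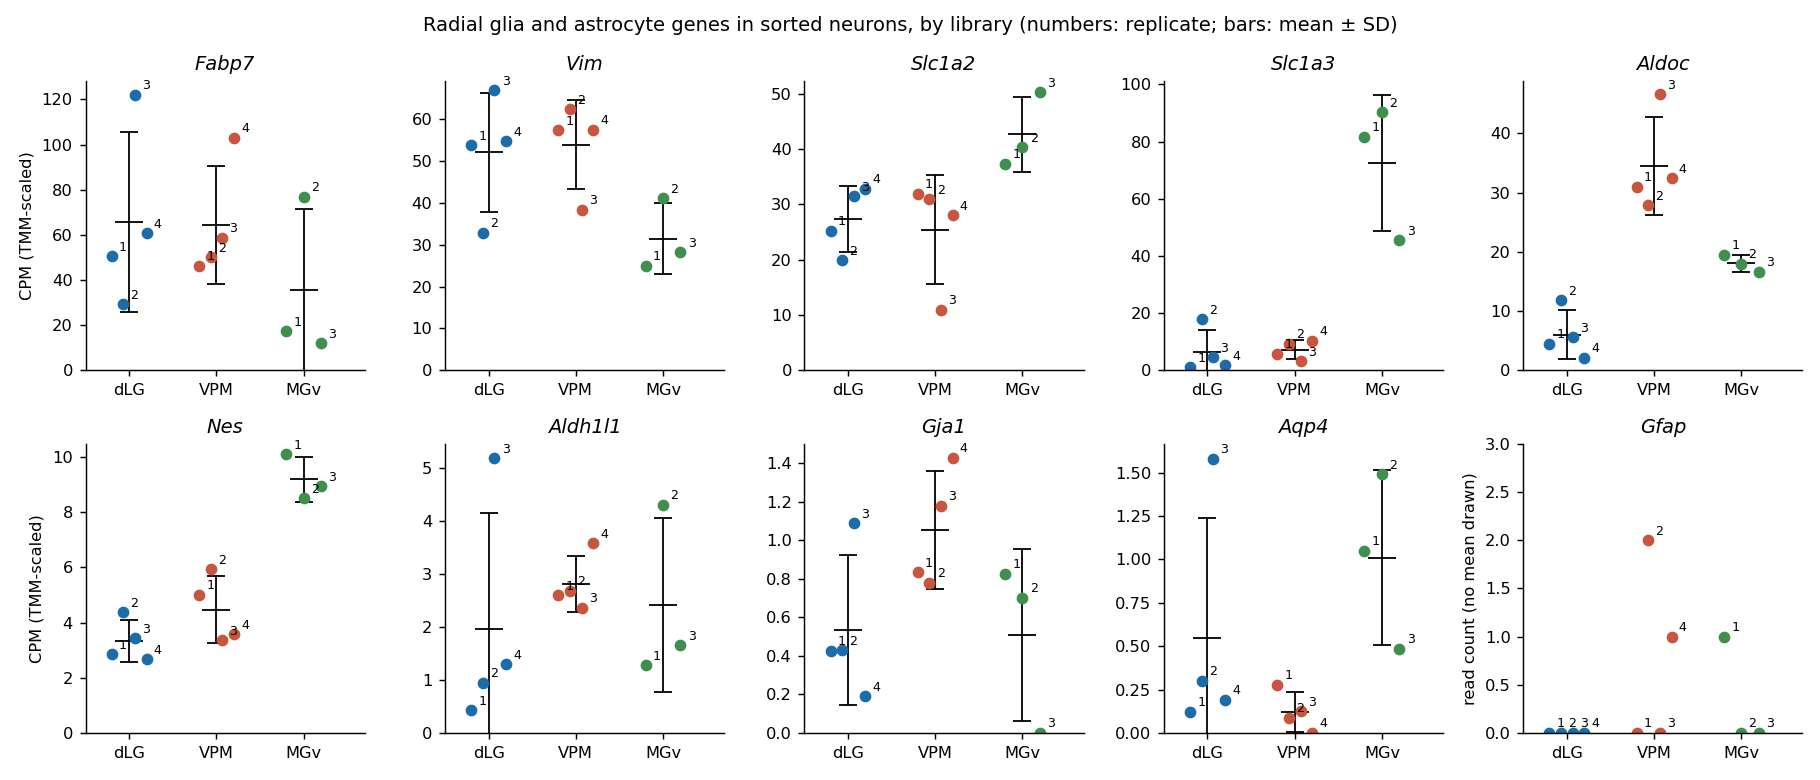
Each panel gives a member's level by library as CPM (read count for Gfap), with the replicate number beside each point and the mean ± SD of the nucleus in black (dLG n = 4, VPM n = 4, MGv n = 3). The MGv libraries stand above all others for Slc1a3 (45.5 to 90.3), Nes (8.51 to 10.1) and Slc1a2 (37.3 to 50.3), and the VPM libraries for Aldoc (27.9 to 46.6).

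Slc1a3 (ENSMUSG00000005360, chr15:8634124-8710764 on the minus strand) differed most. It stood at 81.7, 90.3 and 45.5 CPM in MGv replicates 1 to 3, at 1.10, 17.9, 4.63 and 1.81 in dLG replicates 1 to 4, and at 5.79, 9.30, 3.23 and 10.3 in VPM. Every MGv library was above every other library, and the nearest was dLG 2. The means were 72.5 ± 23.8 (SD, n = 3) in MGv, 6.35 ± 7.83 (n = 4) in dLG and 7.15 ± 3.25 (n = 4) in VPM. Slc1a3 was 11.3-fold higher in MGv than in dLG (log2 fold change of dLG over MGv -3.49 ± 0.70 SE, edgeR adjusted p = 0.00444). It was also 10.1-fold higher in MGv than in VPM (log2 fold change of VPM over MGv -3.33 ± 0.70, adjusted p = 0.00626).

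Between dLG and VPM, Slc1a3 gave a log2 fold change of -0.16 ± 0.64 (95% interval -1.53 to 1.21, adjusted p = 0.931), and dLG 2 decided this value. Without dLG 2 it was -1.53, given with no p because dLG 2 was picked for its high Slc1a3, and dLG over MGv was -4.84. Without the 3 libraries low in Hspa8, of which dLG 2 is 1, dLG over VPM was -1.74, given with no p for the same reason. Slc1a3 was also the most variable member within nuclei, with an SD of 1.18 in log2 CPM, larger than in 96.5% of genes tested and against a median of 0.35.

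The library dLG 2 departed in other genes too. It was the highest of the dLG libraries for Slc1a3, Aldoc and Nes, the 3 members that were higher in MGv than in dLG. It was also the highest dLG library for 54.6% of all 1192 genes higher in MGv than in dLG, against 28.7% of all genes tested and 14.4% of the 1370 genes higher in dLG. Gbx2, the thalamic transcription factor whose locus drives the label, stood at 51.6 CPM in dLG 2 and at 14.2 to 29.4 in the other dLG libraries. It stood at 272 to 333 in MGv and 27.3 to 45.7 in VPM (log2 fold change of dLG over MGv -3.37 ± 0.34, adjusted p = 2.34e-05). An opposite-strand transcript covers 43.5% of the exon bases of Gbx2. The part of the Gbx2 level, or of what set dLG 2 apart, in the difference of Slc1a3 was not tested.

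Slc1a2 (ENSMUSG00000005089, chr2:102658659-102790784 on the plus strand) encodes the main glutamate transporter of mature astrocytes. It stood at 37.3, 40.3 and 50.3 CPM in MGv, at 25.2, 19.9, 31.5 and 32.8 in dLG and at 31.9, 30.9, 10.9 and 28.0 in VPM. The MGv libraries did not overlap the others, yet no contrast passed the test. The log2 fold change was -0.64 ± 0.30 for dLG over MGv (adjusted p = 0.208) and -0.74 ± 0.30 for VPM over MGv (adjusted p = 0.122). Without the libraries low in Hspa8 the values were -0.61 (adjusted p = 0.0355) and -0.59 (adjusted p = 0.0451). The low value in VPM 3 belongs to one of those libraries. The genes with the most similar profile over the 11 libraries were Kalrn, Cbfa2t3 and Ascc3. Their root-mean-square differences were 0.16, 0.19 and 0.20 in centred log2 CPM, beside an SD of 0.58 for Slc1a2. For Slc1a3, Gnat1, Gpr83 and Kdf1 lay nearest at 0.71, 0.76 and 0.77, beside its own SD of 2.10. Such differences grow with the spread of the member, so they do not rank members, and Gnat1 had a mean of only 0.687 CPM.

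Among the metabolic members, Aldoc (ENSMUSG00000017390, chr11:78322968-78327781 on the plus strand) gave the clearest order of nuclei. It stood at 31.0, 27.9, 46.6 and 32.4 CPM in VPM, at 19.5, 18.0 and 16.6 in MGv, and at 4.51, 11.8, 5.61 and 2.10 in dLG. The 3 nuclei did not overlap, with VPM highest, MGv between and dLG lowest. Aldoc was 5.71-fold higher in VPM than in dLG (log2 fold change of dLG over VPM -2.51 ± 0.38, adjusted p = 0.00103) and 2.99-fold higher in MGv than in dLG (-1.58 ± 0.40, adjusted p = 0.0178). VPM over MGv was 0.93 ± 0.40 (adjusted p = 0.144), and this contrast passed in 6 of 23 refits. Among them were the fits without dLG 2 or without dLG 4, the highest and lowest dLG libraries for Aldoc, given with no p for that reason. Neither library is part of VPM or MGv, so both act on this contrast only through the model that the nuclei share. The largest dLG value was again that of dLG 2, without which dLG over VPM was -3.10. Without dLG 3, VPM 4 and MGv 2, which are described below, dLG over MGv was -1.55 with an adjusted p of 0.133.

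Its ubiquitous relative Aldoa followed another order, with 531 to 631 CPM in dLG, 869 to 1110 in VPM and 513 to 601 in MGv. Aldoa was thus higher in VPM than in dLG (log2 fold change of dLG over VPM -0.78 ± 0.12, adjusted p = 0.00104) and than in MGv (VPM over MGv 0.84 ± 0.13, adjusted p = 0.000804). The genes nearest to Aldoc in profile were Fam240b, Spock1 and Cav2, with root-mean-square differences of 0.40, 0.42 and 0.48.

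Fabp7 (ENSMUSG00000019874, chr10:57784881-57788450 on the plus strand), a marker of radial glia also called brain lipid-binding protein, varied widely within nuclei. It stood at 50.4, 29.3, 122 and 60.6 CPM in dLG, at 46.3, 50.1, 58.7 and 103 in VPM and at 17.2, 76.9 and 12 in MGv. One library of each nucleus was high, and the nuclei overlapped. The log2 fold change was 0.02 ± 0.52 for dLG over VPM (95% interval -1.09 to 1.13, adjusted p = 0.991), 0.89 ± 0.58 for dLG over MGv (adjusted p = 0.388) and 0.87 ± 0.58 for VPM over MGv (adjusted p = 0.36). MGv 2 decided the last 2 values. Without it dLG over MGv was 2.16 and VPM over MGv 2.15, given with no p because MGv 2 was picked for its high Fabp7. The SD within nuclei was 0.93 in log2 CPM, larger than in 90.2% of genes tested. Cyp11a1, with a mean of only 0.471 CPM, Rangrf and Angpt2 were nearest in profile, at 0.40, 0.49 and 0.50.

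Aldh1l1 (ENSMUSG00000030088, chr6:90486427-90600203 on the plus strand), a general astrocyte marker, stood at 0.426, 0.945, 5.18 and 1.29 CPM in dLG, at 2.60, 2.68, 2.36 and 3.57 in VPM and at 1.28, 4.30 and 1.65 in MGv. No contrast was called, with log2 fold changes of -0.52 ± 0.61, -0.30 ± 0.68 and 0.22 ± 0.67 for dLG over VPM, dLG over MGv and VPM over MGv (adjusted p = 0.716, 0.847 and 0.867). Without dLG 3, picked as its highest library, dLG over VPM was -1.64, given with no p for that reason. An antisense transcript covers 11% of its exon bases.

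**Figure D3:**
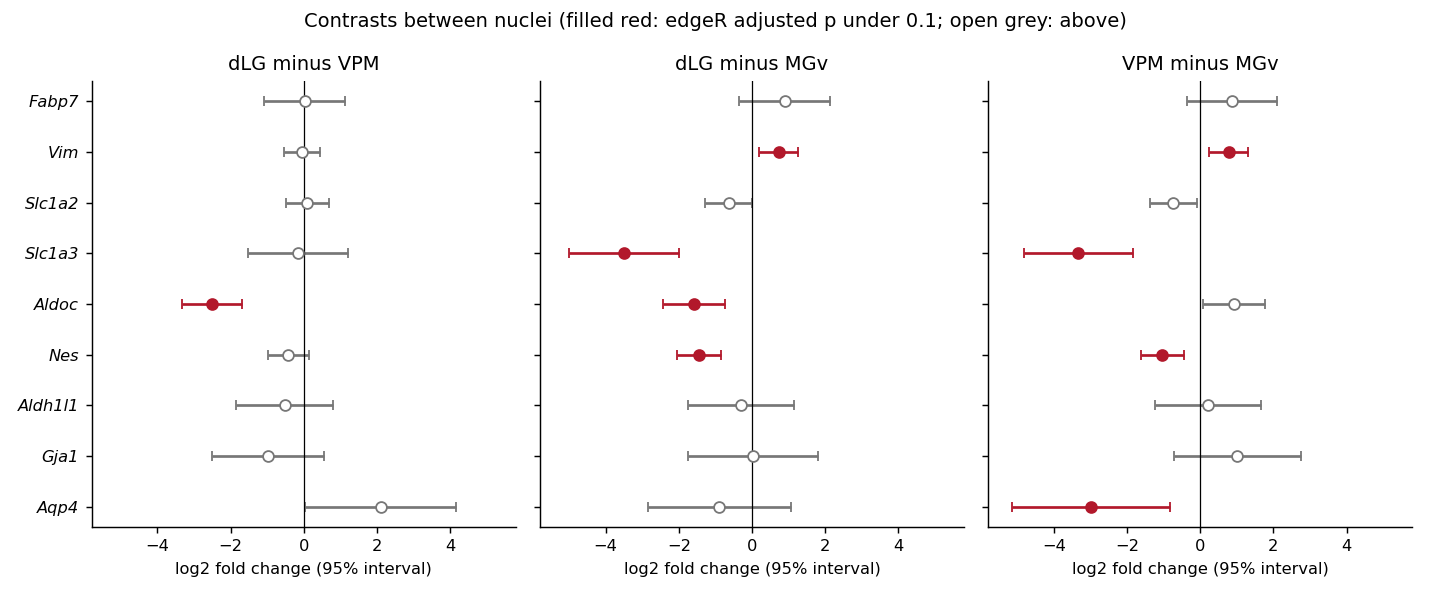
Points give the log2 fold change of the 9 tested members in each contrast with its 95% interval from the edgeR model, filled red where the adjusted p was under 0.1. The largest called values are those of Slc1a3 against MGv (-3.49 and -3.33), Aqp4 in VPM over MGv (-2.98) and Aldoc in dLG over VPM (-2.51), and the intervals of Aldh1l1 and Gja1 include 0 in all 3 panels.

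Of the intermediate filaments, Nes and Vim moved in opposite directions. Nes (ENSMUSG00000004891, chr3:87971078-87980451 on the plus strand), the filament of neural stem cells, stood at 10.1, 8.51 and 8.94 CPM in MGv, at 2.86, 4.38, 3.43 and 2.67 in dLG and at 5.01, 5.93, 3.35 and 3.57 in VPM. All MGv libraries lay above all others, and dLG and VPM overlapped. Nes was 2.74-fold higher in MGv than in dLG (log2 fold change of dLG over MGv -1.46 ± 0.28, adjusted p = 0.00335) and 2.05-fold higher than in VPM (VPM over MGv -1.04 ± 0.28, adjusted p = 0.0243). Nes was among the steadier members, with an SD within nuclei of 0.31. Without dLG 3, VPM 4 and MGv 2, the value of VPM over MGv was -0.98 with an adjusted p of 0.119.

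Vim (ENSMUSG00000026728, chr2:13573927-13582826 on the plus strand), the filament of immature glia and many young cells, stood at 53.8, 32.9, 67.0 and 54.8 CPM in dLG, at 57.5, 62.4, 38.4 and 57.6 in VPM and at 25.0, 41.1 and 28.3 in MGv. The lowest dLG and VPM libraries, both low in Hspa8, overlapped MGv. Vim was 1.66-fold higher in dLG than in MGv (log2 fold change 0.73 ± 0.25, adjusted p = 0.0779) and 1.72-fold higher in VPM than in MGv (0.78 ± 0.25, adjusted p = 0.0556). These calls were lost in several refits. For dLG over MGv that was so without any 1 of dLG 1, dLG 3, dLG 4, MGv 1 or MGv 3 (0.58 to 0.72), and for VPM over MGv without VPM 2, MGv 1 or MGv 3 (0.65 to 0.72). The neurofilament Nefl was likewise higher in dLG (1220 to 1770 CPM) and VPM (1790 to 2410) than in MGv (699 to 793), with log2 fold changes of 0.98 ± 0.16 (adjusted p = 0.000954) and 1.49 ± 0.16 (adjusted p = 4.06e-05). Nefm was called in the same direction (1.55 ± 0.26 and 2.09 ± 0.27). The other neuronal filaments were not called against MGv, with -0.23 (dLG) and -0.19 (VPM) for Ina and -0.29 and 0.92 for Nefh. Rmdn2, Slc33a1 and Mb21d2 were nearest to Vim in profile, at 0.15, 0.18 and 0.18.

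Gfap (ENSMUSG00000020932, chr11:102887336-102900912 on the minus strand), the filament that defines many mature astrocytes, had 0 counts in every dLG library. It had 0, 2, 0 and 1 counts in VPM and 1, 0 and 0 in MGv. All are at or below the floor of 3 counts, so no level or fold change is given.

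The membrane channels were both near the floor. Gja1 (ENSMUSG00000050953, chr10:56377330-56402513 on the plus strand) stood at 0.426, 0.430, 1.09 and 0.191 CPM in dLG, at 0.834, 0.779, 1.18 and 1.43 in VPM and at 0.826, 0.702 and 0 in MGv, and no contrast was called (adjusted p = 0.503, 0.993 and 0.463). Aqp4 (ENSMUSG00000024411, chr18:15389496-15410982 on the minus strand) stood at 0.122, 0.301, 1.58 and 0.191 CPM in dLG, at 0.278, 0.0865, 0.124 and 0 in VPM and at 1.05, 1.49 and 0.486 in MGv. Its 4 VPM libraries held 6, 2, 2 and 0 counts, and the MGv libraries 14, 17 and 5. VPM over MGv was -2.98 ± 1.01 (adjusted p = 0.0686). That call was lost when any 1 of MGv 1, MGv 2, VPM 2 or VPM 4 was left out (-2.95 to -2.58), and also without the libraries low in Hspa8 (adjusted p = 0.166). With so few counts, low and absent expression of Aqp4 in VPM cannot be told apart at this depth.

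Some of the genes, but not most, shared a second pattern over libraries that crossed the nuclei. Fabp7 and Aldh1l1 were highest within their nucleus in the same 3 libraries, dLG 3, VPM 4 and MGv 2, which was noticed after the values were seen. These 2 of the 9 members tested define the pattern, so their count is no result. Over all genes tested 1.52% had it, and of the 18 other astrocyte genes tested 6 did, namely Acsbg1, Apoe, Bcan, Id3, Mlc1 and Slc7a10, all named after their values were seen. Of other radial glia genes it held for 2 of 10, Hes5 and Tnc, and of the oligodendrocyte lineage for 1 of 4, Olig1. It held for 0 of 9 pan-neuronal genes, 0 of 6 thalamic neuron genes, 0 of 8 cell cycle genes, 0 of 6 microglial genes and 0 of 4 vascular genes. The summed level of the other astrocyte genes did not have it. That sum was lowest of the VPM libraries in VPM 4, at 705 CPM against 753 to 1060. It stood at 650 in dLG 3 against 556 to 647 in the other dLG libraries, and at 672 in MGv 2 against 616 and 661.

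Apoe, the lipid carrier made by astrocytes and microglia, stood at 25.2 CPM in dLG 3 against 3.77 to 10.4 in the other dLG libraries, at 42.5 in VPM 4 against 16.7 to 24.1, and at 34.8 in MGv 2 against 17.0 to 19.3. Gja1, Aqp4, Vim and Slc1a3 were highest in 2 of these 3 libraries, whereas Aldoc, Nes and Slc1a2 were highest in none. The part of glial cells or their RNA in these 3 libraries was not tested. Without them Slc1a3 was still called higher in MGv, with log2 fold changes of -3.18 for dLG over MGv (adjusted p = 0.0681) and -3.36 for VPM over MGv (adjusted p = 0.0474). Aldoc was still called higher in VPM than in dLG (-2.52, adjusted p = 0.0224). For Fabp7 the values were 1.67 for dLG over MGv and 1.84 for VPM over MGv, given with no p because these libraries were picked for their high Fabp7.

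**Figure D4:**
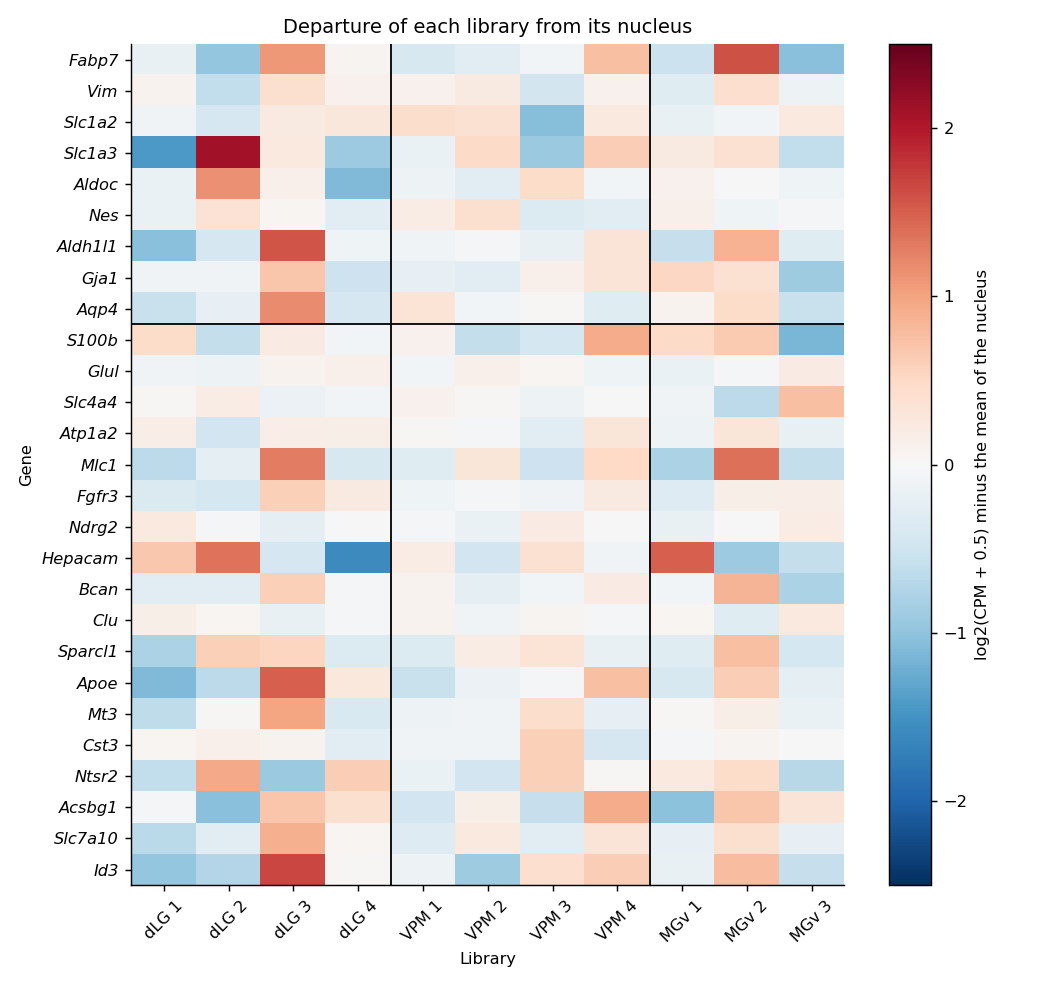
Colour gives log2(CPM + 0.5) of each library minus the mean of its nucleus, for the 9 tested members (above the horizontal line) and the 18 tested genes of the other astrocyte list (below it). Fabp7, Aldh1l1, Apoe, Mlc1 and Id3 are red in dLG 3, VPM 4 and MGv 2, and the darkest red cell is Slc1a3 in dLG 2 (17.9 CPM).

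Other radial glia genes were compared to see whether they moved with Slc1a3. Of 12 listed, 10 were tested. Against MGv, 3 were higher in dLG (8.61% of all genes tested were) and 2 lower (7.49%). Likewise 3 were higher in VPM than in MGv (10.4%) and 2 lower (8.56%). Against VPM, 1 was higher in dLG (4.97%) and 2 were lower (5.74%). The 2 that were higher in MGv than in either other nucleus were Hopx, a small homeodomain protein of radial glia, and Ptprz1, a receptor phosphatase. Hopx stood at 17.9 to 27.9 CPM in MGv and at 1.49 to 5.41 in all other libraries (log2 fold changes -3.08 ± 0.40 against dLG and -2.72 ± 0.39 against VPM, adjusted p = 0.000184 and 0.000438). The antisense gene Hopxos covers 27.2% of its exon bases. Ptprz1 stood at 14.6 to 38.5 CPM in MGv and 4.84 to 9.89 elsewhere (-1.62 ± 0.34 and -1.63 ± 0.34, adjusted p = 0.00633 and 0.00683).

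Hes1, a Notch target that represses proneural genes, ran the other way. It stood at 208 to 239 CPM in VPM, 44.5 to 90.7 in dLG and 0.977 to 5.44 in MGv, with no overlap between nuclei. The log2 fold change was 6.14 ± 0.45 for VPM over MGv (adjusted p = 1.9e-06), 4.20 ± 0.42 for dLG over MGv (adjusted p = 2.21e-05) and -1.94 ± 0.31 for dLG over VPM (adjusted p = 0.00155). The stem cell factor Sox2 was higher in dLG (143 to 179 CPM) than in VPM (68.4 to 76.0) and MGv (77.2 to 101), and the matrix protein Tnc was higher in VPM (4.03 to 7.89) than in dLG (0.67 to 2.07) and MGv (0.194 to 2.72). Dbi, an acyl-CoA binding protein, was lower in MGv (42.0 to 56.9) than in dLG (77.5 to 146) and VPM (82.5 to 185).

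**Figure D5:**
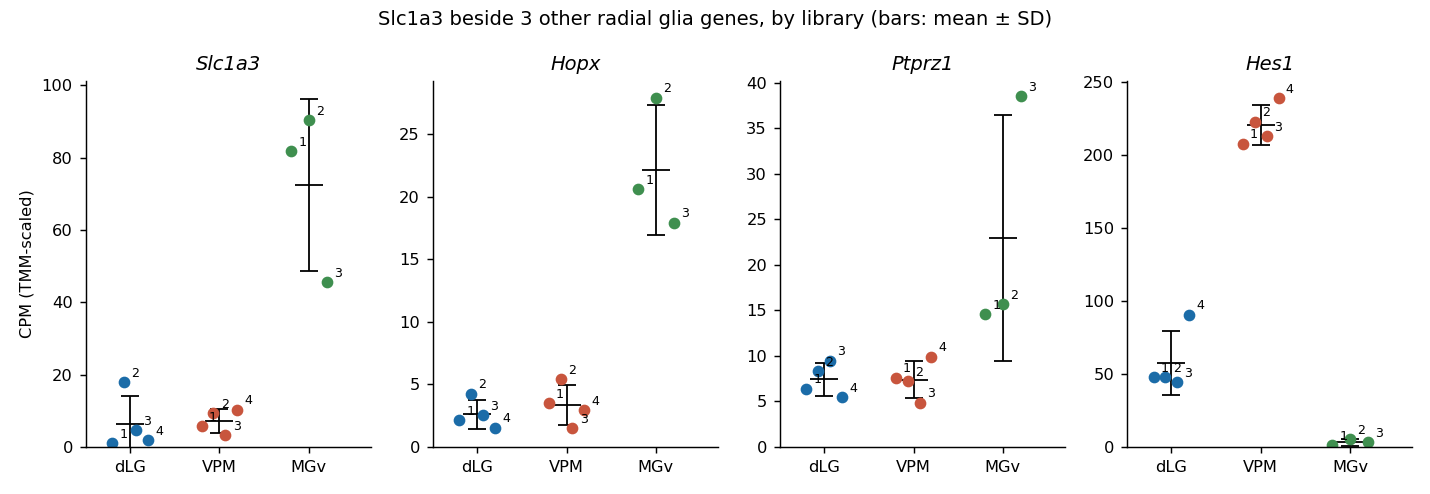
Points give CPM by library for Slc1a3, Hopx, Ptprz1 and Hes1 with the replicate number, and black bars the mean ± SD of each nucleus (dLG n = 4, VPM n = 4, MGv n = 3). Slc1a3, Hopx and Ptprz1 are highest in all MGv libraries, whereas Hes1 is lowest there (0.977 to 5.44).

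Of 19 other astrocyte genes 18 were tested. In dLG, 1 was higher (4.97% of all genes tested were) and 3 were lower (5.74%) than in VPM. Against MGv, 2 were higher in dLG (8.61%) and 1 lower (7.49%). In VPM, 4 were higher (10.4%) and 0 lower (8.56%) than in MGv. The bicarbonate transporter Slc4a4 was lower in dLG (0.109 to 0.258 CPM) than in VPM (0.992 to 1.25, log2 fold change -2.66 ± 0.53, adjusted p = 0.00728) and MGv (1.05 to 3.60, -3.56 ± 0.56, adjusted p = 0.000857). Its dLG libraries held 3, 6, 2 and 3 counts, of which 3 are at or below the floor of 3 counts, so the size of these fold changes is uncertain. The neurotensin receptor Ntsr2 was higher in VPM (3.46 to 7.82) than in dLG (0 to 1.33) and MGv (0.389 to 1.49), with 2 dLG libraries under the floor. The metallothionein Mt3 was lower in MGv (1.17 to 1.58) than in dLG (2.25 to 7.90) and VPM (3.42 to 5.64). Glutamine synthetase, Glul, which converts the glutamate that astrocytes take up, was higher in dLG (33.1 to 39.3) than in VPM (23.8 to 28.0) and MGv (21.0 to 27.6). The most abundant genes of this list, Cst3, Clu and Ndrg2, stood at 270 to 670, 103 to 178 and 58.8 to 116 CPM.

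Cell cycle genes, 10 in number, ran from 0.0204 CPM per kilobase for the proliferation marker Mki67 to 6.76 for Pcna, the sliding clamp of DNA replication and repair. Pcna was thus within the range of the members, above Aldoc at 6.02, and the replication helicase subunit Mcm5 followed at 1.12, whereas the other 8 stood at 0.46 or less. By library, Mki67 stood at 0 to 0.902 CPM and Top2a, a topoisomerase of dividing cells, at 0.487 to 2.64. Of this list, 1 of 8 genes tested was higher in VPM than in dLG (5.74% of all genes tested were). Another 1 was higher in MGv than in dLG (7.49%), and none was called in VPM against MGv (10.4% higher in VPM, 8.56% in MGv). Neurog2, a proneural factor of dividing and newborn cells, stood at 4.20 to 12.6 CPM in dLG, 0.124 to 0.476 in VPM and 0.68 to 3.83 in MGv (log2 fold change of dLG over VPM 4.50 ± 0.59, adjusted p = 0.000292). Of the oligodendrocyte lineage, Mbp was highest in MGv (62.4 to 71.5 CPM, against 5.25 to 20.1 in dLG and 25.0 to 30.7 in VPM), and its highest dLG library was again dLG 2. The defining genes Sox10 and Pdgfra of that lineage stayed at or below 0.0476 and 0.382 CPM. The summed level of the lineage list, 75.2 to 86.5 CPM in MGv against 13.2 to 44.0 elsewhere, was highest in the same nucleus as Slc1a3 and Nes, and its part in their difference was not tested.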

How the data were processed

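The deposited files hold raw read counts per gene, 1 library per file. According to the labels and methods, the authors trimmed reads with Cutadapt 2.3 and Trim Galore 0.6.1, aligned them with STAR 2.7.0d to GRCm38 and counted them with featureCounts (Subread 1.6.4). Strand and multi-mapping settings were not stated in the sources used here. The members and gene lists were chosen with earlier results of these data known.

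Symbols, exon lengths and positions (1-based) came from GENCODE M21, in which 54723 of 54752 identifiers had a record. edgeR 4.0.16 (R 4.3.3) was run on all 11 libraries with 3 group means, filterByExpr (15907 of 33170 genes with a count), TMM and a threshold of 0.1, two-sided. Standard errors are the absolute log2 fold change over the square root of F. The model was tested on simulated counts. Groups came from sample titles, and nothing says the libraries came from separate litters, so p-values measure the spread between libraries. All pairs of libraries within a nucleus differed by more than counting error. The 95% intervals come from this model and include the spread between libraries. The floors of 3 counts cover counting error only, since PCR reads are not independent molecules.

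Named were all members and relatives of members. Genes of the other lists were drawn from the 3 most abundant and up to 3 called genes with the largest change per contrast. Not all of these are named. For each member of at least 10 CPM, the 3 tested genes nearest in centred log2 CPM (prior count 2) were named too.  Sox10, Pdgfra, Mki67, Top2a and the genes highest in dLG 3, VPM 4 and MGv 2 were named after their values were seen. Alternatives were DESeq2 1.42.0, other scalings and filters, the replicate block, a covariate for or removal of the libraries low in Hspa8, pairs of nuclei, thinned counts, a threshold of 0.05 and each library left out. Removal of dLG 3, VPM 4 and MGv 2 was chosen after seeing the data.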

Additional observations from a re-analysis of the deposited data

Results flagged for a closer look

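A sample that lies far from the others of its nucleus was looked for in 84 sets of 4 libraries (dLG and VPM), by the gap to the nearest library over the range of the set. Of these 9 passed the critical value, and chance flags about 1 in 20. MGv, with 3 libraries, was not tested.

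Among the members, Aqp4 was far above its nucleus in dLG 3, at 1.58 CPM. The summed red blood cell genes were far above in the same library, at 512 CPM. In dLG 4, Hes1 was far above the other dLG libraries at 90.7 CPM, and the summed level of the other astrocyte genes was far below them at 556 CPM. In dLG 2 the summed oligodendrocyte lineage genes were far above at 30.7 CPM. In VPM 3, Mt3 was far above at 5.64 CPM, whereas the relatives Slc1a1 and Gjd2 were far below at 98 and 35.1 CPM. Sox2 was far below in VPM 2, at 68.4 CPM.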

How the results depend on the processing

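Slc1a3 in both contrasts with MGv, Aldoc between dLG and VPM and Nes between dLG and MGv kept their direction and call under every alternative run, with ranges of -4.84 to -3.14 (dLG over MGv) and -3.57 to -3.02 (VPM over MGv) for Slc1a3, -3.10 to -2.23 for Aldoc and -1.62 to -1.36 for Nes. Without dLG 3, VPM 4 and MGv 2, calls were lost for Aldoc (dLG over MGv -1.55), Nes (VPM over MGv -0.98) and Vim (dLG over MGv 0.82), and 945 genes differed between dLG and VPM and 1477 between dLG and MGv, in place of 1704 and 2562, and the cause was not tested. Without the libraries low in Hspa8, dLG 2 among them, 2618 genes and 2 members differed between dLG and VPM. Aqp4 then lost its call (VPM over MGv -2.98), as it did with thinned counts (-2.46). A threshold of 0.05 ended the calls of Vim (0.73 and 0.78) and Aqp4 (-2.98). It left 2 members in VPM over MGv, beside 2020 of 15907 genes. With no count filter this number of members was 7, beside 3254 of 33170 genes, and the cause was not tested. Leaving out 1 library gave 1093 to 2223 genes and 1 to 2 members between dLG and VPM. For VPM over MGv it gave 2024 to 3235 genes and 2 to 5 members. The lowest gene counts between dLG and VPM came without VPM 2 (1093) or VPM 1 (1101). Vim then ranged from 0.58 to 0.96 and from 0.65 to 1.03 against MGv, and Aqp4 from -3.75 to -2.58.

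With the replicate block, Vim (0.72 and 0.76) and Aqp4 (-2.80) lost their calls against MGv. In VPM over MGv 2 members were then called, beside 2695 of 15907 genes. The block turned no called member and added none. The shared replicate numbers do not show as pairs: deviations of same-numbered libraries correlated at -0.20 to 0.48 (mean 0.016, n = 10 pairs).

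Over all refits of results that answer a comparison, 341 stayed the same, 13 counts moved and 23 lost a call. The 341 include numbers of genes and members and summed levels, which have no call, beside called contrasts. Of the other values 354 stayed uncalled with no change of sign, 25 gained a call and 22 changed sign. Those that changed sign were all uncalled. They were, for dLG over VPM, Fabp7 (-0.10 with the Hspa8 covariate, -0.16 without dLG 3, VPM 4 and MGv 2, -0.47 to 0.34 leaving out 1 library), Slc1a2 (-0.02 without the libraries low in Hspa8, -0.14 to 0.21), Slc1a3 (0.18 without dLG 3, VPM 4 and MGv 2, -1.53 to 0.17) and Vim (0.03 with total counts, -0.20 to 0.10). For dLG over MGv they were Aldh1l1 (-1.42 to 0.42) and Gja1 (-0.31 without dLG 3, VPM 4 and MGv 2, -0.57 to 0.56), and for VPM over MGv Aldh1l1 (-0.03 without the libraries low in Hspa8, -0.08 to 0.95). Depth limits Gja1, Aqp4 and Gfap most, in MGv above all.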
